A study of Mus musculus with 12 samples.

Results

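The prohibitin complex of the inner mitochondrial membrane and the proteins that work beside it were followed as a set of 10 genes: Phb, Phb2, Stoml2, Afg3l1, Afg3l2, Spg7, Yme1l1, Oma1, Opa1 and Immt. They were taken by gene name from the deposited expression tables, which together name 39985 genes, and each of the 10 stood on 1 row of each table. The data are RNA-seq values from 12 mouse libraries in 4 groups of 3. GC2 cells, a cultured line known as a mouse spermatocyte line, came as a control and as a PHB knockdown. Spermatocytes came from control mice and from mice with a conditional Phb knockout, after enzyme digestion of the tubules and flow sorting by Hoechst staining of DNA. The sources used here do not give how the knockdown was made, which Cre driver and which exons the knockout used, or the age and strain of the mice. Per the series text the 3 libraries of a group are biological replicates, but no culture or animal is named for any of them, so a p-value speaks for the spread among these libraries only, which may be technical.

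Prohibitin 1 (Phb) and prohibitin 2 (Phb2) alternate in large rings in the inner membrane, and both proteins are known to depend on each other for their stability. The rings bind the m-AAA protease, an ATP-driven enzyme built from Afg3l2 alone or with Spg7 (paraplegin) or, in mice, Afg3l1, which removes faulty membrane proteins and matures some imported ones. Stoml2, a stomatin-like relative of the prohibitins, assembles a second scaffold with the i-AAA protease Yme1l1, which faces the intermembrane space. Yme1l1 and Oma1, a metallopeptidase that membrane stress activates, both cut Opa1, the GTPase that fuses inner membranes and keeps cristae closed. Immt (mitofilin) is the core of MICOS, the complex that forms cristae junctions. In the testis these systems are known for the remodelling of mitochondria as germ cells pass through meiosis. The values below are RNA levels, so they do not read protein stability, protease activity or Opa1 processing.

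The stretches just upstream of 3 of these genes are shown because Phb is the targeted gene, Phb2 encodes its ring partner, and Opa1 had the lowest adjusted p of the 10 in spermatocytes. They are RefSeq sequence of build GRCm38.p6, plus strand, read 5′ to 3′, and end at the base before the RefSeq start of the gene. The Phb and Opa1 stretches have 250 bases, and that of Phb2 has 110, because exon sequence annotated further upstream was left out. Phb lies at chr11:95666707-95666956, Phb2 at chr6:124712179-124712288 and Opa1 at chr16:29579084-29579333.
Phb: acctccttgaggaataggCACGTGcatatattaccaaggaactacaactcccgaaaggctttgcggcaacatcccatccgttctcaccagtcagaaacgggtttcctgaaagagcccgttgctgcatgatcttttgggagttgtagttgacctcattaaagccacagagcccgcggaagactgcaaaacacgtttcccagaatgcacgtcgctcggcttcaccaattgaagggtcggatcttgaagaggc
Phb2: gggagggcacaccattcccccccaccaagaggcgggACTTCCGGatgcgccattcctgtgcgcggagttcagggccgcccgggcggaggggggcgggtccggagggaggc
Opa1: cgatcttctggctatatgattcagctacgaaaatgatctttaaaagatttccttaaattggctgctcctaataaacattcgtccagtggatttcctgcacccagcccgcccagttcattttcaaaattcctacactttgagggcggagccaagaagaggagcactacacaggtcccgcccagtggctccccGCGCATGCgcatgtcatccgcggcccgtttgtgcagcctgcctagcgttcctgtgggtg
Capitals mark the E-box CACGTG upstream of Phb, 232 bases before its start, the reverse complement of the ETS word CCGGAAGT upstream of Phb2, 74 bases before its start, and the NRF1 word GCGCATGC upstream of Opa1, 59 bases before its start. The reverse complement of the NRF1 word, GCATGCGC, overlaps the marked word upstream of Opa1 and is only partly in capitals. All these words were chosen after the sequences were seen. Over all 32851 RefSeq windows of 300 bases around a start, searched on both strands, CACGTG was found in 7.15%, CCGGAAGT in 3.89% and GCGCATGC in 2.71%. Among the 9 genes of the set with a window, CCGGAAGT also stood in that of Stoml2, and neither the CRE word TGACGTCA (1.79% of windows) nor the ATF4 word TGATGCAA (0.895%) stood in any.

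Expression is given in FPKM, the fragments of a gene divided by its transcript length and by all mapped fragments of the library. The totals per library were 194949 to 206711 FPKM in GC2 cells and 289707 to 297362 in spermatocytes. Fold changes are log2 differences of FPKM + 1, which understates the change of low genes. Rows at or above 1 FPKM in 3 or more of 6 libraries were tested with limma. A row was called where its p, adjusted by Benjamini and Hochberg over all rows tested, was under 0.05. All 10 genes passed this filter in both kinds of sample. The GC2 and spermatocyte tables have different sets of rows and may have been normalized separately, so levels of one kind stand beside the other only as a description. The library kit marks strand, but whether counting used it is not stated here. Phb2, Stoml2 and Immt overlap annotated genes on the other strand (Gm15884, Gm26643, and Gm44771 and Gm17825) and Phb overlaps the long non-coding gene Gm26830 on its own strand, so reads of these could be counted with them.

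The labelled cell types were checked against markers. In GC2 cells the 4 genes with a row in a list of 6 germ cell genes (Ddx4, Dazl, Sycp3 and Stra8) summed to 0.05 to 0.32 FPKM. The line, though known as a spermatocyte line, thus held almost no RNA of these germ cell genes. Of the stage markers, Ldhc and Sycp1 were at 0 to 0.05 FPKM, the recombination gene Prdm9 at 0.73 to 1.52, and Hspa2 at 0 in 4 libraries but at 4.64 and 4.68 in knockdown replicates 2 and 3, which were picked out after their values were seen. The 8 fibroblast and epithelial genes summed to 928.7 to 1026 FPKM in control and 844.6 to 880.5 in knockdown, with 2 of 5 tested higher and 3 lower. Their top gene Fn1 fell from 402.4 to 256.1 FPKM (adjusted p = 0.0015), and Col1a2, named after its values were seen, from 54.4 to 10.8 (adjusted p = 2.8e-05). Among the myoid genes Acta2 fell from 93.8 to 16.8 FPKM (adjusted p = 3.1e-05), and of 4 tested Sertoli genes 3 rose. Tjp1, the highest of these in level, rose by 0.48 on the log2 scale (adjusted p = 0.00214). Clu, named after its values were seen, rose most, by 1.06 (adjusted p = 3.8e-04). The part of these shifts in the GC2 differences below was not tested. In spermatocytes, 9 of 9 pachytene and diplotene genes fell in the knockout libraries, from a sum of 2299 to 2346 FPKM to 39.1 to 41.4, and 8 of 8 spermatid genes fell from 792.5 to 825.5 to between 6.82 and 9.25. Sertoli cell genes rose, 11 of 12, from 746.4 to 857.1 to between 3150 and 3346 FPKM. So did 7 of 7 tested Leydig cell genes, from 29.7 to 31.2 to between 228.5 and 233.2, 7 of 8 macrophage genes, from 18.4 to 24.4 to between 38.9 and 42.5, and 7 of 7 myoid and endothelial genes, from 29.5 to 31.1 to between 58.3 and 59.5. Earlier stages were mixed, with 3 higher and 5 lower of 8 leptotene and zygotene genes and 2 higher and 4 lower of 9 spermatogonial genes. The mitochondrially encoded share of all FPKM was 12.2% to 13.6% in control and 17.1% to 19.5% in knockout spermatocytes. Every spermatocyte difference below stands beside these shifts of cell type markers, whose part in it was not tested, and fewer cells of a type and less RNA per cell cannot be told apart in bulk samples.

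Of the ring partners, Phb was lower in the knockdown and knockout libraries and Phb2 was not. In GC2 control libraries Phb (chromosome 11, 95666957 to 95680773, GRCm38) stood at 56.62, 53.99 and 52.36 FPKM, and in the knockdown at 22.66, 18.37 and 19.02. The 2 groups were far apart, and every knockdown library held less than the lowest control. Phb fell from 54.3 ± 2.15 to 20.02 ± 2.31 FPKM (SD, n = 3), a drop of 63.2% and a log2 change of -1.40 (SE 0.090, adjusted p = 6.2e-04). Only 1.81% of the 10791 rows tested in GC2 had a lower fold change. Phb2 (chromosome 6, 124712336 to 124716950) was at 29.16, 33.5 and 31.72 FPKM in control and 29.86, 30.39 and 31.42 in knockdown, so all 3 knockdown libraries lay within the control range. Its log2 change was -0.04 (SE 0.063, adjusted p = 0.698), and its sign turned when libraries were rescaled, for example to 0.005 with median centring.

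In spermatocytes Phb read 12.6, 13.35 and 13.86 FPKM in control and 11.81, 11.33 and 11.53 in knockout. The groups did not overlap, but the highest knockout library was close to the lowest control. Phb fell by 12.9%, from 13.3 ± 0.634 to 11.6 ± 0.241 FPKM (SD, n = 3), a log2 change of -0.18 (SE 0.042, adjusted p = 0.00741). This call depended on the scaling between libraries. The adjusted p was 0.169 with quantile normalization, 0.63 with median centring and 0.0654 without mitochondrial rows. The setting without mitochondrial rows also scaled the remaining named rows of each library to a common total. The log2 change turned to 0.07 (adjusted p = 0.158) with the median of each chromosome subtracted. That setting subtracts the median level of a chromosome's rows in each library, which need not follow their fold changes. The 1247 tested rows of chromosome 11 had a median fold change of -0.02. Quantile normalization also moved the median fold change of all spermatocyte rows from 0.05 to 0.28, and the share of calls that were higher from 51.6% to 62%. Since the deleted exons are not given, a value over the whole gene cannot say how much intact Phb transcript was left.

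Phb2 rose in the knockout. Its spermatocyte row, which also names the small nucleolar RNA Gm23547 inside the gene, held 23.58, 23.62 and 21.91 FPKM in control and 26.77, 27.2 and 26.99 in knockout. All knockout libraries were above all controls and close to one another. The log2 change was 0.22 (SE 0.036, adjusted p = 0.00159), or 17.1% on the means, though a value shared with Gm23547 cannot be given to 1 gene.

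The Phb to Phb2 ratio within a library is not touched by scaling between libraries. In GC2 cells it was 1.94, 1.61 and 1.65 in control and 0.759, 0.604 and 0.605 in knockdown. In spermatocytes it was 0.534, 0.565 and 0.633 in control and 0.441, 0.417 and 0.427 in knockout. The ratio was lower in 3 of 3 libraries in both cases, by -1.41 and -0.43 on the log2 scale, with an exact two-sided permutation p of 0.10 each, the smallest that 3 against 3 allows. Phb thus had the higher value of the 2 rows in the GC2 control alone of the 4 groups. In spermatocytes the Phb2 value was that of the row shared with Gm23547. The sum of Phb and Phb2 went from 85.8 ± 1.71 to 50.6 ± 1.88 FPKM in GC2 cells and from 36.3 ± 0.610 to 38.5 ± 0.0321 in spermatocytes (SD, n = 3). By a rough estimate from the steps between low FPKM values, the spermatocyte Phb row rests on about 234 to 391 fragments per library. The Phb2 row rests on about 742 to 991. Counting alone would spread the knockout sums more, so their closeness does not show how precise they are.

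**Figure D1:**
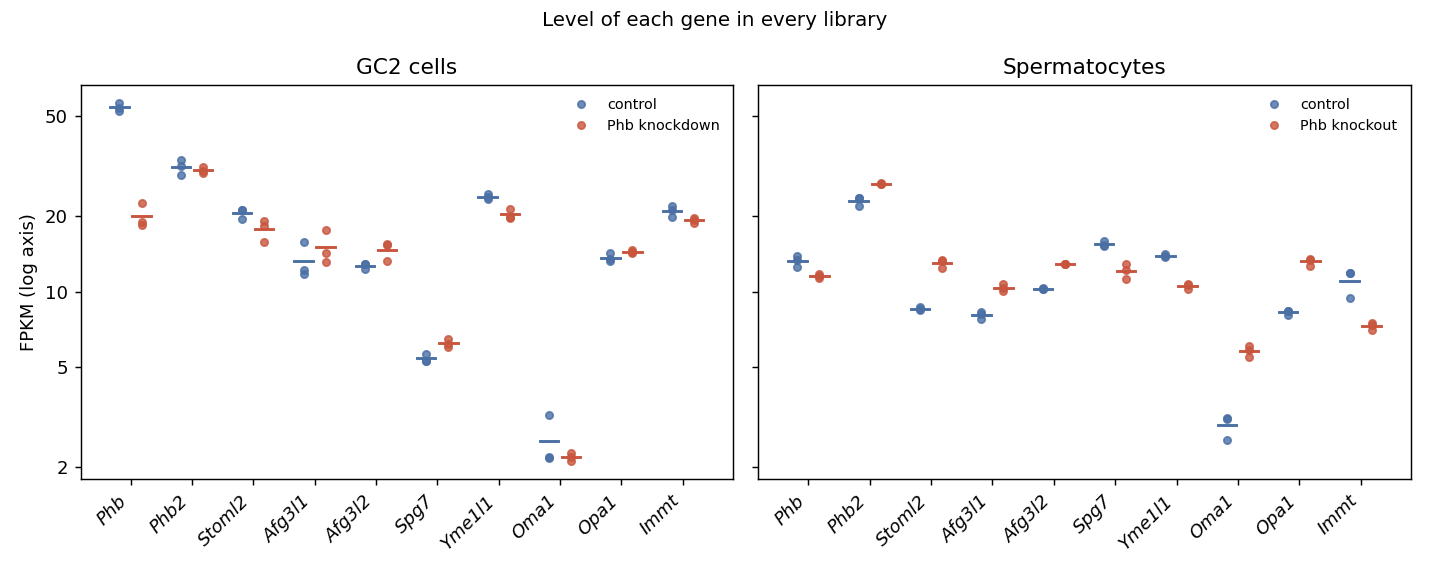
FPKM of the 10 genes in each of the 12 libraries on a log axis, GC2 cells on the left and spermatocytes on the right, with points for libraries and lines for group means. Phb is the highest of the set only in GC2 control. In spermatocytes the control and knockout libraries overlap for none of the 10 genes, where 81.8% of all 15957 tested rows do not overlap.

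Stoml2 (chromosome 4, 43027690 to 43031710, minus strand) held 19.56, 21.22 and 21.16 FPKM in GC2 control and 19.16, 18.24 and 15.72 in knockdown. The knockdown libraries were all below the controls, by a narrow gap, and the log2 change of -0.21 (SE 0.086) missed the threshold with an adjusted p of 0.138, which was 0.0345 with all 12 libraries in 1 fit. In spermatocytes Stoml2 read 8.47, 8.5 and 8.71 FPKM in control and 12.41, 13.26 and 13.35 in knockout. It rose by 51.9%, a log2 change of 0.55 (SE 0.039, adjusted p = 2.6e-05), with a wide gap between groups. The difference between the 2 fold changes was 0.76 (SE 0.096, adjusted p = 7.1e-05).

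Across the set, 2 of 10 genes were called in GC2 cells, Phb and Yme1l1, both lower, where 24.5% of the 10791 tested rows were called (10.7% higher and 13.9% lower). In spermatocytes all 10 were called, 6 higher and 4 lower, where 79.4% of 15957 rows were called (40.9% higher and 38.5% lower). Whether the set differs from the whole tables in these counts was not tested. Groups did not overlap for 6 of 10 genes in GC2, against 44.9% of all rows, and for 10 of 10 in spermatocytes, against 81.8%. The median fold change of the set was -0.08 in GC2 and 0.26 in spermatocytes, beside -0.04 and 0.05 over all rows, and its median size was 0.17 and 0.36, beside 0.23 and 0.64. The median size of change in the set was thus below that of all rows in both kinds of sample. In GC2 the share of calls that were higher was 43.5%, and rose to 53.6% with quantile normalization, 57.5% without mitochondrial rows and 55.8% with chromosome medians subtracted, so small GC2 changes lean on the scaling. Mitochondrial rows held only 0.035% to 0.128% of the FPKM in GC2 libraries. The setting without them also rescaled each library to a common total, and the 2 steps were not tested apart.

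The 3 subunits of the m-AAA protease split in spermatocytes. Afg3l2 (chromosome 18, 67404764 to 67449172, minus strand), the subunit that can form the enzyme alone, read 10.26, 10.24 and 10.31 FPKM in control and 12.9, 12.93 and 12.9 in knockout. The libraries of each group lay almost on one another, with coefficients of variation of 0.351% and 0.134%, and the groups were clearly apart. By a rough estimate from the steps between low FPKM values, this row rests on about 694 to 939 fragments per library. Counting alone would spread such values more, so their closeness does not show how precise they are. Afg3l2 rose by 25.7%, a log2 change of 0.30 (SE 0.027, adjusted p = 7.5e-05). Afg3l1 (chromosome 8, 123477903 to 123503916) rose with it, from 8.15, 8.32 and 7.75 FPKM to 10.75, 10.02 and 10.3, a log2 change of 0.32 (SE 0.042, adjusted p = 5.4e-04). Spg7 (chromosome 8, 123062942 to 123097760), the partner subunit paraplegin, went the other way, from 15.25, 15.98 and 15.33 FPKM to 12.85, 11.23 and 12.23. All knockout libraries lay below all controls. Spg7 fell by 22%, a log2 change of -0.34 (SE 0.053, adjusted p = 0.0013). This call was lost with chromosome medians subtracted (-0.08, adjusted p = 0.206). Of the 858 tested rows of chromosome 8, 338 were called higher and 338 lower.

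In GC2 cells the same subunits did not pass the test fitted on GC2 libraries alone. Afg3l2 held 12.89, 12.29 and 12.94 FPKM in control and 15.33, 15.49 and 13.24 in knockdown. The third knockdown library stood close to the controls, and the log2 change of 0.19 (SE 0.074) had an adjusted p of 0.125, or 0.0457 (log2 change 0.26) without knockdown replicate 3 and 0.0227 with all 12 libraries in 1 fit. The 277 tested rows of chromosome 18 had a median fold change of 0.19 in GC2, equal to that of Afg3l2, with 78 called higher and 15 lower. Afg3l2 stood at -0.02 once the median of its chromosome was subtracted. Spg7 held 5.3, 5.31 and 5.64 FPKM in control and 6.48, 6.21 and 6.0 in knockdown, a log2 change of 0.17 (SE 0.054, adjusted p = 0.0752). Its groups did not overlap, and it passed with quantile normalization (adjusted p = 0.0444), median centring (0.0462), without mitochondrial rows (0.0305) and with all 12 libraries in 1 fit (0.0309). Afg3l1 was spread widely in both groups, 11.77, 12.23 and 15.71 FPKM against 17.7, 14.25 and 13.16, with a log2 change of 0.17 (SE 0.153, adjusted p = 0.471).

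The Afg3l1 to Afg3l2 ratio had a geometric mean of 1.03 and 1.02 in GC2 control and knockdown and of 0.786 and 0.802 in spermatocyte control and knockout. The groups overlapped in both kinds of sample, and the exact permutation p was 0.90 and 0.50. Spg7 differed in direction between the 2 comparisons, and the difference of its fold changes was -0.51 (SE 0.075, adjusted p = 2.2e-04). For Afg3l1 and Afg3l2 that difference was 0.15 (SE 0.166, adjusted p = 0.456) and 0.11 (SE 0.078, adjusted p = 0.242). Spg7 also took another place in the order of the set: its level was above 8 of the other 9 genes in spermatocyte control and above 1 of them in GC2 control. Afg3l1 and Spg7 both lie within the span of the annotated read-through gene Gm20388 on the same strand, so reads of that gene could be counted with either.

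Yme1l1 (chromosome 2, 23156369 to 23199260), the i-AAA protease, was the one gene beside Phb that was called lower in both kinds of sample. In GC2 it held 23.33, 24.62 and 23.79 FPKM in control and 21.38, 19.91 and 19.67 in knockdown. The groups were separate, and Yme1l1 fell by 15%, a log2 change of -0.23 (SE 0.052, adjusted p = 0.0317). The call was fragile: the adjusted p was 0.0584, 0.0937 and 0.0861 without control replicate 1, 2 or 3, and 0.0959 without knockdown replicate 2 or 3. It was 0.0649 with quantile normalization, 0.0538 with median centring, 0.0777 without mitochondrial rows and 0.194 with chromosome medians subtracted, where all these fits kept the negative sign. In spermatocytes the row, which also names the neighbouring gene 4931423N10Rik, held 14.09, 13.72 and 13.89 FPKM in control and 10.6, 10.29 and 10.69 in knockout. It fell by 24.3%, a log2 change of -0.37 (SE 0.030, adjusted p = 5.3e-05), and the difference from GC2 was -0.15 (SE 0.058, adjusted p = 0.054). A value shared with 4931423N10Rik cannot be given to Yme1l1 alone.

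Oma1 (chromosome 4, 103313812 to 103371868), the stress-activated peptidase, was the lowest of the 10 genes in all 4 groups. In spermatocyte control it held 2.56, 3.12 and 3.15 FPKM and in knockout 6.07, 5.86 and 5.48. Each knockout library was well above each control. Oma1 rose by 97.2% on the means, a log2 change of 0.79 (SE 0.076, adjusted p = 1.2e-04). By an estimate from the steps between low FPKM values, this row rests on about 73 to 181 fragments per spermatocyte library, the fewest of the set. In GC2 it held 3.22, 2.18 and 2.19 FPKM in control and 2.2, 2.11 and 2.27 in knockdown. Control replicate 1 alone stood above the other 5 libraries, and the log2 change of -0.13 (SE 0.128, adjusted p = 0.51) was 0.003 without it. The difference between the 2 fold changes was 0.92 (SE 0.154, adjusted p = 4.9e-04).

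The Oma1 to Yme1l1 ratio set the 2 peptidases that cut Opa1 side by side, with the row shared with 4931423N10Rik as Yme1l1 in spermatocytes. It was 0.182, 0.227 and 0.227 in spermatocyte control and 0.573, 0.569 and 0.513 in knockout, a log2 difference of 1.39 with groups far apart (exact two-sided permutation p = 0.10, the smallest possible). In GC2 it was 0.138, 0.0885 and 0.0921 in control and 0.103, 0.106 and 0.115 in knockdown. Those groups overlapped, with a log2 difference of 0.05 and an exact permutation p of 0.90.

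**Figure D2:**
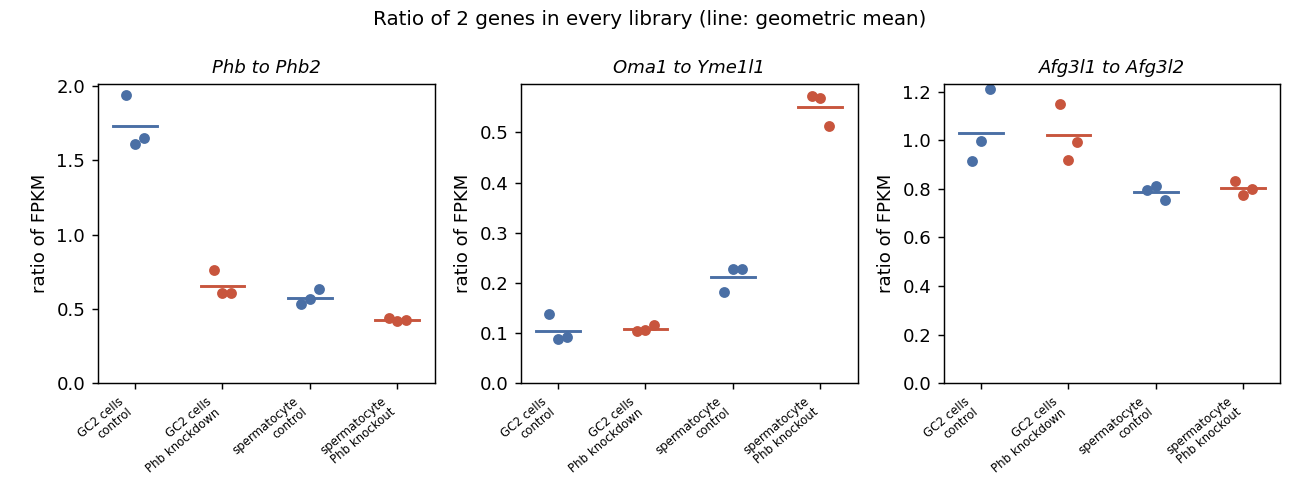
Ratio of the FPKM of 2 genes in every library, for Phb to Phb2, Oma1 to Yme1l1 and Afg3l1 to Afg3l2, with points for libraries and lines for geometric means in the 4 groups. In spermatocytes the Phb2 row also names Gm23547 and the Yme1l1 row also names 4931423N10Rik. The Oma1 to Yme1l1 ratio stands at 0.513 to 0.573 in knockout spermatocytes and at 0.227 or below in the other groups, while Afg3l1 to Afg3l2 overlaps between control and treated libraries.

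Opa1 (chromosome 16, 29579334 to 29654884), the fusion GTPase that both peptidases cut, read 8.1, 8.34 and 8.38 FPKM in control spermatocytes and 12.68, 13.41 and 13.5 in knockout. It went from eighth to second place in the order of the set, with all knockout libraries far above all controls. Opa1 rose by 59.5%, a log2 change of 0.61 (SE 0.037, adjusted p = 1.2e-05). In GC2 the libraries overlapped at 14.26, 13.3 and 13.47 FPKM in control and 14.62, 14.21 and 14.42 in knockdown, with a log2 change of 0.07 (SE 0.047, adjusted p = 0.336). The difference between the fold changes was 0.54 (SE 0.058, adjusted p = 2.0e-05).

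Immt (chromosome 6, 71831331 to 71877388), the core subunit of MICOS, fell in knockout spermatocytes. Its control libraries held 11.9, 9.43 and 11.87 FPKM and its knockout libraries 7.03, 7.48 and 7.36. Control replicate 2 stood lower than the other controls and still above every knockout library. Immt fell by 34.1%, a log2 change of -0.53 (SE 0.091, adjusted p = 0.00188). In GC2 it held 21.91, 21.1 and 19.82 FPKM in control and 19.71, 18.71 and 19.34 in knockdown, with a log2 change of -0.11 (SE 0.054, adjusted p = 0.194) and groups that barely missed each other. The difference between the fold changes was -0.42 (SE 0.112, adjusted p = 0.00861).

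**Figure D3:**
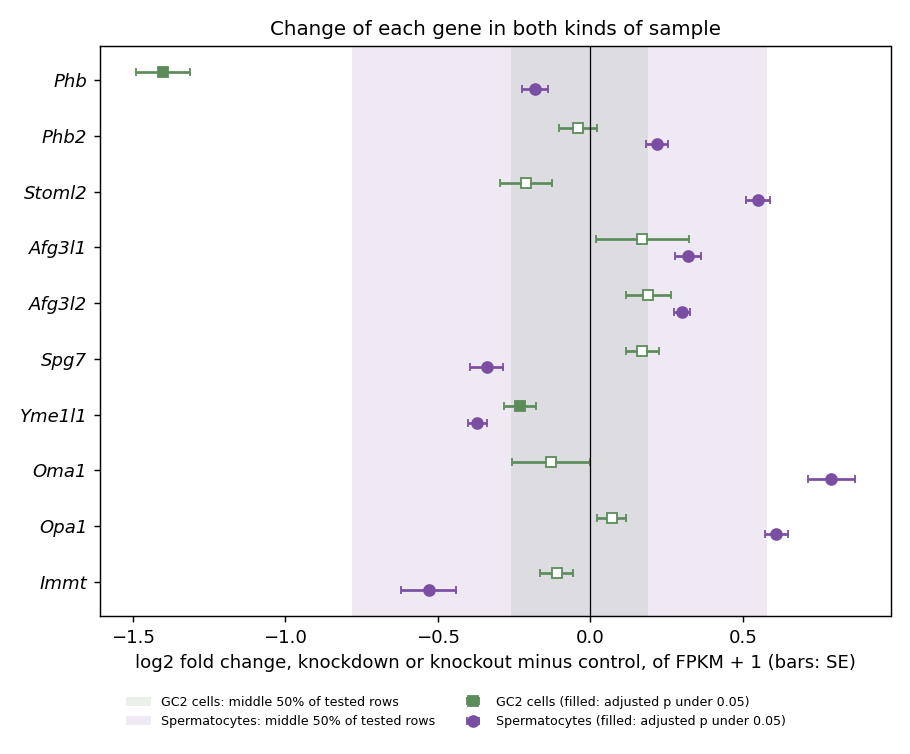
Log2 fold change of FPKM + 1 for the 10 genes, knockdown minus control in GC2 cells (squares) and knockout minus control in spermatocytes (circles), with bars for the standard error, filled symbols for adjusted p under 0.05, and shaded bands for the middle 50% of all tested rows. Phb in GC2 cells (-1.40), Oma1 (0.79) and Opa1 (0.61) in spermatocytes lie outside their bands, from -0.26 to 0.19 in GC2 and from -0.78 to 0.58 in spermatocytes, and Afg3l2 in GC2 (0.19) lies at the edge of its band.

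The difference between the 2 comparisons was called for 7 of the 10 genes, where 61.1% of 9720 genes tested in both were called. Phb2, Stoml2, Spg7 and Oma1 had fold changes of opposite sign, of which only the spermatocyte one passed the test in each case. Phb had a difference of 1.22 (SE 0.103, adjusted p = 3.9e-06) and Phb2 one of 0.26 (SE 0.074, adjusted p = 0.0125). Afg3l1, Afg3l2 and Yme1l1 had the same sign in both and missed the threshold, which does not show that they responded alike. Leaving out GC2 control replicate 2 or GC2 knockdown replicate 3 brought Yme1l1 under it (adjusted p = 0.0416 and 0.0398), as did a pseudocount of 0.1 (0.0401), a mean of 5 FPKM (0.0444) and leaving out mitochondrial rows (0.0463). Median centring brought Afg3l2 under it (0.0349). With chromosome medians subtracted the difference was no longer called for Immt (-0.25, adjusted p = 0.112), and was called for Afg3l1 (adjusted p = 0.027), Afg3l2 (0.00179) and Yme1l1 (0.0418).

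The order of the levels differed between the 4 groups. In GC2 control Phb led at 54.3 FPKM, before Phb2 (31.5), Yme1l1 (23.9) and Immt (20.9). The ranges of Immt and Stoml2 (20.7) overlapped there, as did those of Opa1 (13.7), Afg3l1 (13.2) and Afg3l2 (12.7), and Spg7 (5.42) and Oma1 (2.53) came last. In the knockdown Phb2 led at 30.6 FPKM, and Yme1l1 (20.3), Phb (20.02), Immt (19.3) and Stoml2 (17.7) followed, each overlapping the next. In spermatocyte control Phb2 led at 23.04 FPKM, before Spg7 (15.5), Yme1l1 (13.9) and Phb (13.3), of which the last 2 overlapped. In the knockout Phb2 (26.99) was followed by Opa1 (13.2), Stoml2 (13.01) and Afg3l2 (12.9), whose ranges overlapped one with the next. The sum of the 10 genes went from 198.9 ± 0.861 to 160.4 ± 7.74 FPKM in GC2, where the 9 genes other than Phb summed to 144.5 ± 2.73 and 140.4 ± 5.65, with overlapping libraries. In spermatocytes the sum of the 10 was higher in every knockout library than in any control, from 114.9 ± 0.273 to 123.7 ± 0.670 FPKM (SD, n = 3 in each case).

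The rows whose values followed Phb most closely were listed over the 6 libraries of each kind, which fall into 2 groups, so a row that moved between the groups in proportion scores high. In GC2 these were Txnip (Pearson's r = 0.9994 on log2 FPKM + 1), an inhibitor of thioredoxin, Mthfd2 (0.9990), a mitochondrial enzyme of folate metabolism, and Ash2l (0.9984), a subunit of histone methyltransferases, among 6139 rows with a mean of at least 5 FPKM. In spermatocytes they were Sqle (0.9905), an enzyme of cholesterol synthesis, Ccnh (0.9888), a cyclin of the kinase that activates cell cycle kinases, and Zfp236 (0.9880), a zinc finger protein, among 8689 rows.

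Other genes of the same systems were read as lists, by counts and medians. All list counts below stand beside the 24.5% of rows called in GC2 (10.7% higher, 13.9% lower). In spermatocytes the share was 79.4% (40.9% higher, 38.5% lower). Whether any list differs from these shares was not tested. Some GC2 rows of the lists spread widely within a group, so a gene not called there need not be steady. Of the reference list below, Tomm22 held 41.38, 110.28 and 112.1 FPKM in knockdown and Cs 55.52, 57.96 and 28.16 in control. Both were picked after their values were seen. The SPFH-domain relatives of the prohibitins, proteins that share the prohibitin domain, were 4 higher and 2 lower of 6 tested in knockout spermatocytes, with a median of 0.25. Erlin1, which acts in the endoplasmic reticulum, fell from 20.1 to 7.26 FPKM (log2 change -1.35, adjusted p = 9.6e-07). Its partner Erlin2 fell from 24.8 to 17.7 FPKM (-0.46, adjusted p = 2.2e-05), while the raft protein Flot1 rose from 4.10 to 8.68 (0.92, adjusted p = 1.7e-05). None of 6 was called in GC2.

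Among 10 MICOS subunits and bridging proteins beside Immt, 3 were lower in GC2 and none higher, with a median of -0.04, and 6 were higher and 2 lower in spermatocytes, with a median of 0.14. Chchd6, a MICOS subunit, fell from 33.8 to 6.84 FPKM in knockout spermatocytes, a log2 change of -2.15 (adjusted p = 1.2e-07). Its paralog Chchd3 rose from 12.6 to 23.0 FPKM (0.82, adjusted p = 7.3e-06). Immt therefore fell with one of its CHCHD partners and against the other.

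The GC2 calls in that list were Samm50, the outer membrane sorting protein, from 89.5 to 71.02 FPKM (-0.33, adjusted p = 0.00568), and the MICOS subunits Apoo, from 11.2 to 7.84 (-0.47, adjusted p = 0.0262), and Apool, from 4.60 to 3.30 (-0.38, adjusted p = 0.0358). In spermatocytes Apoo (0.41, adjusted p = 4.4e-04), Apool (0.97, adjusted p = 2.0e-05) and the row shared by Samm50, Pnpla3 and Gm49513 (0.14, adjusted p = 0.0127) were all higher. Apoo lost its GC2 call without any 1 library other than knockdown replicate 1, and Apool without any other than control replicate 1, at adjusted p-values up to 0.0818 and 0.108. With chromosome medians subtracted the GC2 calls of Samm50 (adjusted p = 0.159), Apoo (0.0552) and Apool (0.111) were lost, and the sign of Apoo in spermatocytes turned (-0.14).

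Other mitochondrial proteases and peptidases were 1 higher and 2 lower of 13 in GC2, and 5 higher and 4 lower of 15 in spermatocytes, with medians of -0.11 and 0.03. In spermatocytes Lonp1, the matrix quality control protease, rose from 18.1 to 38.7 FPKM (1.05, adjusted p = 6.5e-07) and Pitrm1, which degrades cleaved targeting peptides, from 10.4 to 26.9 (1.29, adjusted p = 5.7e-07). Immp2l, a subunit of the inner membrane peptidase, fell from 9.28 to 0.857 FPKM (-2.47, adjusted p = 6.8e-07). Pmpcb, the catalytic subunit of the peptidase that trims imported proteins, fell in both, from 13.4 to 8.60 FPKM in GC2 (-0.58, adjusted p = 8.4e-04) and from 23.3 to 16.04 in spermatocytes (-0.51, adjusted p = 3.6e-05). Metap1d, a methionine aminopeptidase, rose in both, by 0.30 (adjusted p = 0.0242) and 0.76 (adjusted p = 7.0e-04). Pitrm1 went opposite ways, with -0.19 in GC2 (adjusted p = 0.017). Leaving out single GC2 libraries ended the GC2 calls of Metap1d (without control replicate 2 or any knockdown replicate, adjusted p up to 0.0752) and Pitrm1 (without control or knockdown replicate 3, up to 0.0621). The Pitrm1 call was also lost with median centring (adjusted p = 0.0539), without mitochondrial rows (0.106) and with chromosome medians subtracted (0.11).

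Adaptors and substrates of the inner-membrane proteases were 1 higher and 2 lower of 14 in GC2 (median 0.02) and 8 higher and 3 lower of 14 in spermatocytes (median 0.25). Dele1, the substrate through which Oma1 signals stress to the cytosol, fell from 10.06 to 4.29 FPKM in spermatocytes (-1.06, adjusted p = 1.1e-06). Prelid1, a lipid carrier that Yme1l1 degrades, rose from 20.2 to 32.99 FPKM (0.68, adjusted p = 2.6e-06). The row shared by Pink1, the kinase that marks damaged mitochondria, with 2 small RNA genes fell from 69.9 to 44.05 FPKM (-0.65, adjusted p = 9.0e-06).

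Ghitm and Mrpl32 were among the genes of this list called in both kinds of sample. Ghitm, an inner membrane protein that interacts with Afg3l2, fell by 0.38 in GC2 (adjusted p = 0.00576) and rose by 0.19 in spermatocytes (adjusted p = 4.1e-04). Mrpl32, a ribosomal protein that the m-AAA protease matures, fell by 0.36 in GC2 (adjusted p = 0.0171) and rose by 0.35 in spermatocytes (adjusted p = 0.0287). The Mrpl32 spermatocyte call was lost without any 1 library other than knockout replicate 1 (adjusted p up to 0.0857), and its GC2 call without control replicate 2 or 3 or knockdown replicate 2 (up to 0.0608).

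Genes of cardiolipin, the lipid that prohibitin rings are thought to cluster, were 3 lower of 9 in GC2 with a median of -0.27, and 5 higher and 3 lower of 9 in spermatocytes with a median of 0.43. Crls1, cardiolipin synthase, fell from 20.2 to 15.2 FPKM in GC2 (-0.39, adjusted p = 0.00412), and its row shared with Mcm8 rose in spermatocytes (0.43, adjusted p = 7.4e-04). Lclat1, a remodelling acyltransferase, likewise fell in GC2 (-0.59, adjusted p = 0.0163) and rose in spermatocytes (0.54, adjusted p = 1.6e-04), the GC2 call being lost without control replicate 1, 2 or 3 (adjusted p = 0.0504, 0.0561 and 0.054). Hadha, of fatty acid oxidation, was lower in both (-0.32, adjusted p = 0.00719, and -0.18, adjusted p = 0.00108), and in spermatocytes the call was lost with quantile normalization (adjusted p = 0.174) and median centring (0.56) and the sign turned with chromosome medians subtracted (0.08). Ptpmt1, the phosphatase before Crls1 in the pathway, fell from 11.07 to 4 FPKM in spermatocytes (-1.27, adjusted p = 2.4e-06), while Cds2, which makes CDP-diacylglycerol in the endoplasmic reticulum, rose from 5.87 to 10.7 (0.76, adjusted p = 1.9e-05).

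Outer-membrane fusion and fission genes, the counterpart of Opa1 on the other membrane, were none called of 8 in GC2 (median -0.20) and 4 higher and 3 lower of 9 in spermatocytes (median -0.13). Mfn2, a fusion GTPase, fell from 39.6 to 12.8 FPKM in knockout spermatocytes (-1.56, adjusted p = 4.7e-07), against the rise of Opa1. The fission GTPase Dnm1l rose from 17.3 to 30.6 FPKM (0.78, adjusted p = 1.4e-04) and the outer membrane protein Fis1 from 22.3 to 27.9 (0.31, adjusted p = 6.9e-04).

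A reference list of 15 general mitochondrial genes was 2 lower and none higher in GC2 with a median of 0.00, and 8 higher and 6 lower in spermatocytes with a median of 0.13. Its own members went far apart in spermatocytes: the outer membrane channel Vdac1 rose from 19.3 to 69.7 FPKM (1.80, adjusted p = 2.6e-07), Vdac2 fell from 63.5 to 34.5 (-0.86, adjusted p = 2.6e-07) and the chaperonin Hspd1 rose from 62.8 to 119.2 (0.91, adjusted p = 4.4e-07). Sdha, of complex II, was lower in GC2 (-0.41, adjusted p = 0.0244) and its row shared with Pdcd6 higher in spermatocytes (0.13, adjusted p = 0.0385). Uqcrc2, of complex III, was lower in both (-0.23, adjusted p = 0.0376, and -0.18, adjusted p = 4.0e-04), the spermatocyte call being lost with median centring (-0.02, adjusted p = 0.411) and its sign turning with chromosome medians subtracted (0.06). Its GC2 call was lost with no filter (adjusted p = 0.0611), quantile normalization (0.0674), median centring (0.0706), without mitochondrial rows (0.16) and with chromosome medians subtracted (0.112). Leaving out single libraries ended the GC2 and spermatocyte calls of Sdha (adjusted p up to 0.0794 and 0.11) and the GC2 call of Uqcrc2 (up to 0.109), without any 1 library other than control replicate 2 and knockdown replicate 1, control replicate 2 and knockout replicate 2, and knockdown replicate 2, respectively.

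**Figure D4:**
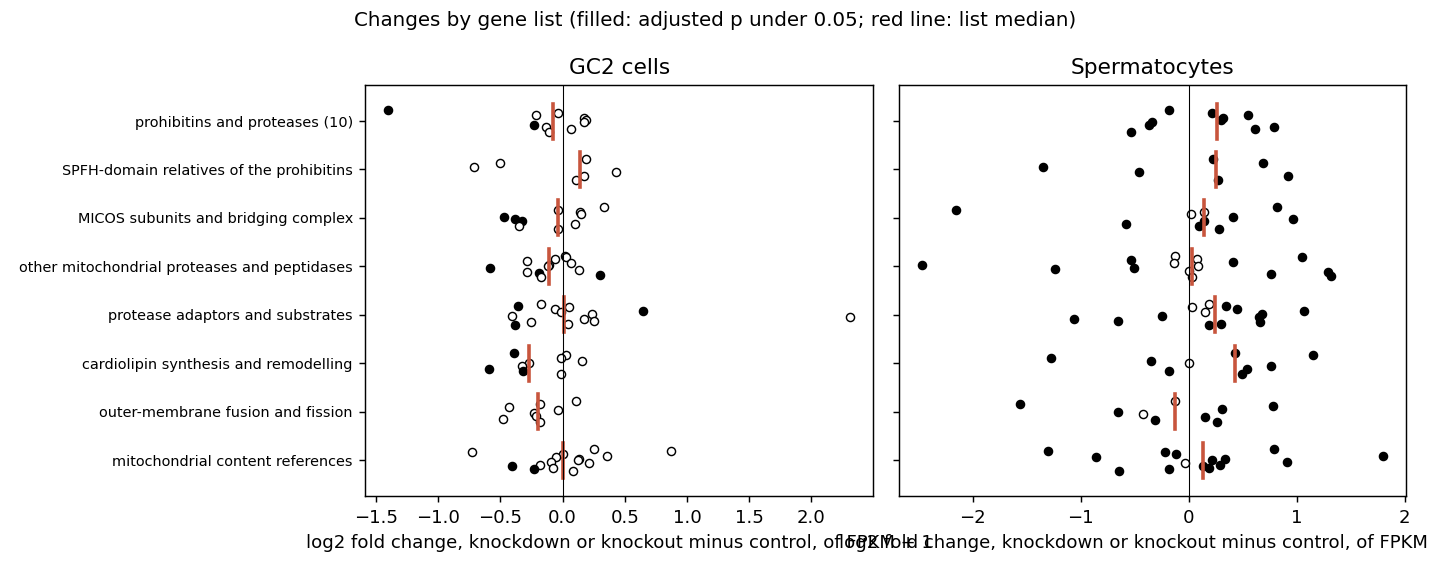
Log2 fold change of FPKM + 1 for the 10 genes and for the tested genes of 7 related lists, GC2 cells on the left and spermatocytes on the right, 1 point per gene, filled where adjusted p was under 0.05, with red lines for list medians. List medians lie between -0.27 and 0.14 in GC2 and between -0.13 and 0.43 in spermatocytes, with genes of most lists on both sides of 0.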

How the data were processed

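RNA-seq values of 12 mouse libraries, 3 in each of 4 groups set by GEO's labels, were used. The values are FPKM as the authors deposited them, 1 column per library with 2 decimals, per the file headers. The submitters' processing notes list HISAT2 (version 2.1.0), DESeq, GRCm38 and mm10 without saying what each was used for. The quantifier and the annotation release: not given in the sources used here. Per the labels' protocols the library kit was directional, which marks strand. In FPKM a group of genes that takes more of the RNA lowers the values of the rest. Positions are from GENCODE M21 on GRCm38.

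The design had provided for counts or normalized values; the files hold FPKM, so limma (version 3.58.1, R 4.3.3) with a variance trend was fitted on log2(FPKM + 1) in each table, and over all 4 groups for the difference between comparisons. No test used the unnamed rows (1200 in the GC2 table, 164 in the spermatocyte table), which held 0.75% to 3.93% of the FPKM. Ratios were tested by exact permutation. Tables were summarised with pandas 2.3.3 and numpy 2.4.6 and plotted with matplotlib 3.10.9 under Python 3.11.15. The 10 genes, the lists and the naming rule were chosen with earlier results of these data known. The rule names the 10 genes, from each list up to 3 called genes per comparison with the smallest adjusted p and all called in both, the 3 rows per table most like Phb, and the highest gene of a marker list. A gene of 1 list that the rule names is not reported here.

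Depth is not stated. From steps between low values, spermatocyte libraries held about 11.5 to 15.7 M fragments; between 35.2% and 40.5% of low values lay within 0.1 of a whole fragment at that depth, so the estimate is rough, and in GC2 it was not used. On simulated data 62% of genes changed 1.25-fold were recovered in spermatocytes (15957 rows) and 14% in GC2 (10791 rows). For 2-fold changes the shares were 98% and 46%. Of the calls, 4.52% and 6.06% were unchanged genes. The simulation changed few rows, all at about 5 FPKM or more in control, above Oma1. In the real data 79.4% and 24.5% of rows were called, so these rates may not carry over. Alternatives were another pseudocount (0.1), no filter or a mean of 5 FPKM, 4 other scalings, single libraries left out, a replicate block and all libraries in 1 fit. A comparison of protein sequences was not made.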

Additional observations from a re-analysis of the deposited data

Results flagged for a closer look

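Under the same contrast, knockdown or knockout minus control, 7 of the 10 genes differed between GC2 cells and spermatocytes by limma's test of the difference of log2 fold changes. The values were 1.22 for Phb, 0.92 for Oma1, 0.76 for Stoml2, 0.54 for Opa1, 0.26 for Phb2, -0.42 for Immt and -0.51 for Spg7, as spermatocyte minus GC2. Each comparison held 3 libraries against 3, and the same test called 61.1% of all 9720 genes it covered. The knockdown of a cultured line and the knockout in sorted cells differ in cell type, method of depletion and size of the Phb change, which cannot be told apart.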

How the results depend on the processing

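Phb in GC2 and 8 genes in spermatocytes (Phb2, Stoml2, Afg3l1, Afg3l2, Yme1l1, Oma1, Opa1 and Immt) kept direction and call under every alternative that gave a value, Oma1 not being tested at a mean of 5 FPKM. Depth limits Oma1 most. Each gene stood on 1 row, so summing rows changed nothing. Unless a cause lies in fewer rows or libraries tested, the cause of a change below was not tested.

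With the replicate number as a block, 1985 rows were called in GC2 in place of 2649 and 12482 in spermatocytes in place of 12672. Of the 10 genes 1 was called in GC2 in place of 2. Of the other proteases 1 was called in place of 3, and of the fusion and fission genes 1 in place of 0. Yme1l1 was the gene no longer called (adjusted p = 0.0887), as were Apool (0.105), Pitrm1 (0.0559), Metap1d (0.0604), Lclat1 (0.0505) and Uqcrc2 (0.0503) in GC2 and Mrpl32 (0.0538) and Sdha (0.0685) in spermatocytes. Deviations of same-numbered libraries correlated at 0.061 to 0.124 in GC2, where each library correlated best with its own number, a hint from the data and not from the design, and at -0.054 to 0.007 in spermatocytes, so the numbers were not taken as pairing. The block changed no call of the 10 genes in spermatocytes or in the difference between comparisons.

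A mean of 5 FPKM left 6169 rows tested in GC2 and 8691 in spermatocytes, in place of 10791 and 15957. Of these, 1640 were called in GC2 (706 higher and 934 lower, in place of 1153 and 1496). In spermatocytes 7253 were called (3944 higher and 3309 lower, in place of 6533 and 6139). Of the protease adaptors and substrates 7 were called there in place of 11. With a mean of 5 FPKM the difference between comparisons was called for 3191 genes, and with no filter for 10875, in place of 5939 of 9720. The filters left different numbers of genes to test. With all 12 libraries in 1 fit, only genes tested in both kinds of sample were covered. In spermatocytes 6482 of 9657 rows were called (4044 higher, 2438 lower), in place of 12672 of 15957. Called there were 4 fusion and fission genes (7 before) and 9 reference genes (14 before). In GC2 that fit called 3369 of 9548 rows, in place of 2649 of 10791. Among them were 5 of the 10 genes (Phb, Stoml2, Afg3l2, Spg7 and Yme1l1), 1 prohibitin relative, 1 fusion and fission gene and 4 reference genes. In spermatocytes the same fit lost Cds2 (adjusted p = 0.0529), Erlin2 (0.14) and Sdha (0.127).

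With no filter the calls of Apool in GC2 (adjusted p = 0.0685) and of Mrpl32 (0.0504) and Sdha (0.0636) in spermatocytes were lost, and that of Apool also with median centring (0.0516) and without mitochondrial rows (0.06). Scaling moved small GC2 values. Phb2 turned to 0.004 with quantile normalization, 0.005 with median centring, 0.037 without mitochondrial rows and 0.058 with chromosome medians subtracted. The last also gave -0.020 for Afg3l2, 975 lower rows, 1 of the 10 genes, 1 prohibitin relative and 0 MICOS genes called in GC2. In spermatocytes it gave 0.068 for Phb, -0.137 for Apoo, 0.077 for Hadha and 0.063 for Uqcrc2. Of the reference genes 1 was called in GC2 in place of 2 with no filter, quantile normalization, median centring or without mitochondrial rows.

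Without single libraries, higher GC2 rows numbered 744 to 962, and 1 to 2 of the 10 genes were called. The GC2 calls ranged from 1 to 2 for MICOS, 1 to 3 for proteases, 1 to 4 for adaptors, 0 to 2 for fusion and fission and 0 to 4 for reference genes, and in spermatocytes from 4 to 7 for fusion and fission. GC2 values ranged from -0.091 to 0.006 for Phb2 and -0.201 to 0.003 for Oma1. The log2 ratio difference ranged from -0.062 to 0.258 for Oma1 to Yme1l1 in GC2, and for Afg3l1 to Afg3l2 from -0.112 to 0.095 in GC2 and -0.003 to 0.054 in spermatocytes.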
